A study of Mus musculus with 2 samples.

Results

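Adventitial fibroblasts are the collagen-producing cells of the connective tissue sheath around lung arteries, veins and airways. Cells were chosen here as such by UMI counts (unique molecular identifiers, 1 per captured transcript). A cell needed at least 8 UMIs summed over Pi16, Dpt, Mfap5, Clec3b, Col14a1 and Serpinf1, with at least 4 of them from Pi16, Dpt and Mfap5. It also needed at least 5 UMIs of Col1a1, Col1a2 and Col3a1 and at most 1 UMI of Epcam, Pecam1 and Ptprc, which mark epithelial, endothelial and immune cells. Of 8559 cells kept, 545 passed: 271 of 4141 in the control library and 274 of 4418 in the mutant library. The choice used the measured values themselves, so the levels of the rule's genes in these cells, called members below, are a description and no test. The data went against the label for most members. Pi16, the defining marker of the adventitial sheath, was seen in 17 control and 26 mutant members, and most of the others carried markers of alveolar fibroblasts or of myofibroblasts.

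The series holds droplet single-cell RNA profiles (10x Chromium 3' kit, version 2 chemistry) of mouse lung at postnatal day 10. There is 1 library per genotype, a control titled Control scRNAseq Nkx2-1 and a mutant titled Mutant scRNAseq Nkx2-1;Aqp5. Nkx2-1 encodes a homeobox factor of the lung epithelium, and Aqp5 is known as a gene of flat alveolar type 1 cells whose locus has been used to drive recombination there. In both libraries the cells were epithelial, immune, endothelial and mesenchymal cells purified by FACS, so the share of members in a library depends on that sort. Beyond these titles, the sources used here do not state the control's alleles, the strain or how many animals were pooled. With 1 library per genotype, no difference between them has a replicate check, and genotype and library cannot be told apart. All intervals below are exact 95% intervals that cover counting error only, binomial for shares, Poisson for levels and conditional binomial for ratios.

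The control library held 4461 barcodes with a median of 5943 UMIs, and the mutant library 4551 barcodes with a median of 8305. Members were closer in depth, with medians of 6192 and 5738 UMIs and 2245 and 2218 genes per cell. Control members held 1777456 UMIs in all and mutant members 1699341. The libraries share 27 barcode sequences, of which 1 was a member in each library. Levels are given as CPM, counts per 1000000 UMIs summed over the cells of a group, with the control first unless stated. Fewer cells with a transcript and fewer transcripts per cell were not told apart in these sums.

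As background, the fibroblasts of the mouse lung fall into several known types. Adventitial fibroblasts make fibrillar collagens and carry Pi16 and Dcn. Alveolar fibroblasts lie in the walls of the air sacs, depend on the transcription factor Tcf21 and make Npnt, a ligand of integrin alpha 8. Myofibroblasts stand at the tips of growing septa, contract through smooth muscle actin (Acta2) and lay down elastin while alveoli form.

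Members were divided by marker sums with the gates of those types. Tcf21 members had at least 5 UMIs over Tcf21, Npnt, Ces1d, Slc7a10, Fgfr4 and Wnt2 with at least 1 of Tcf21. Aspn members had at least 8 UMIs over Tgfbi, Aspn, Agt, Hhip and Mustn1. Pi16 members had at least 1 Pi16 UMI and were kept out of both other sets, and members past both gates were set aside. This division was made after seeing the data, and the genes of the gates are therefore no findings between the sets.

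Of the rule's 6 marker genes, Dpt supplied the most UMIs in members and Pi16 the fewest, and the 250 bases before their starts are shown for this reason. Tcf21 belongs to the basic helix-loop-helix factors, which are known to bind the letters CANNTG (the same on both strands). The sequences are from RefSeq, build GRCm38.p6, both on the plus strand, and capitals mark each CANNTG. Dpt lies at chr1:164796413-164796662 and Pi16 at chr17:29318632-29318881.
Dpt: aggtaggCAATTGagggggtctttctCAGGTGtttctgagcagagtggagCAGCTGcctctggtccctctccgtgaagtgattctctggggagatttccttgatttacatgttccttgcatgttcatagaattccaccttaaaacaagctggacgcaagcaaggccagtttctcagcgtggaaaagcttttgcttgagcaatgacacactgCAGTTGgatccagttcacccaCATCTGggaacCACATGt
Pi16: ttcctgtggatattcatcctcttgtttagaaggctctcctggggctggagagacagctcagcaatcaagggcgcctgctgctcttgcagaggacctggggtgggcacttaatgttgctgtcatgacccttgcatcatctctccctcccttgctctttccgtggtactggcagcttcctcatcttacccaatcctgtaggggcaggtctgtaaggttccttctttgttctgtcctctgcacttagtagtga
The window of Dpt holds 6 matches and that of Pi16 holds 0. Of 32851 windows of this length before gene starts, 66.2% hold at least 1 match, and 90 windows (0.274%) hold at least as many as that of Dpt. A match is a string of letters and not a site of binding.

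Tcf21 members made up 114 of 271 control members (42.1%, 36.1 to 48.2) and 166 of 274 mutant members (60.6%, 54.5 to 66.4). Aspn members made up 107 (39.5%, 33.6 to 45.6) and 56 (20.4%, 15.8 to 25.7). Pi16 members made up 17 (6.27%, 3.70 to 9.85) and 26 (9.49%, 6.29 to 13.6). Another 7 and 3 members passed both marker gates, and 26 and 23 were in no set. The Tcf21 set was thus the larger of these sets in both libraries, and the Pi16 set the smallest. The intervals of the control and mutant shares do not overlap for the Tcf21 and Aspn sets, but they cover the counting of cells within 1 library each. Median depths within the sets were 5672 and 5704 UMIs for Tcf21 members, 6571 and 6048 for Aspn members and 6666 and 6236 for Pi16 members.

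**Figure D1:**
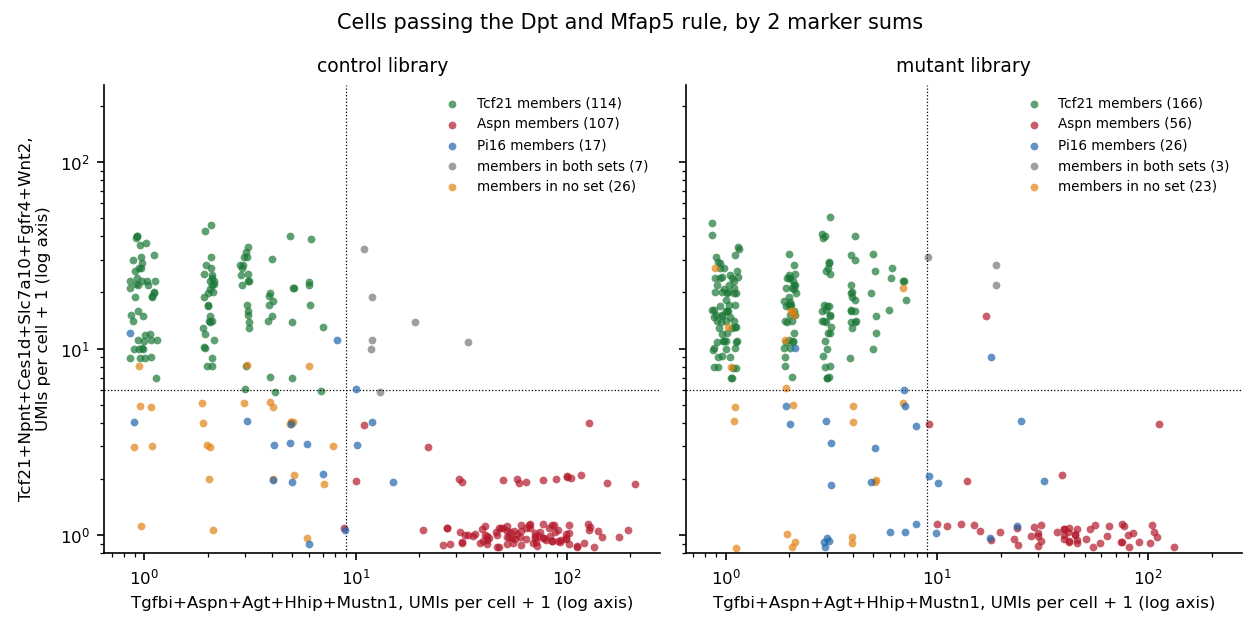
Each point is 1 member, with its UMIs of the 5 Aspn gate genes on the horizontal axis and of the 6 Tcf21 gate genes on the vertical axis, both plus 1 on log axes with slight jitter, for the control (left) and mutant (right) library. Dotted lines mark the gates, and the 280 Tcf21 members and 163 Aspn members occupy different corners, with 10 members past both gates.

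The rule in turn caught most of the Tcf21 cells and few of the Aspn cells among the collagen-expressing cells. Of collagen cells passing the Tcf21 gate, 124 of 150 control cells (82.7%) and 172 of 200 mutant cells (86.0%) were members. Of those with the Aspn sum, 119 of 758 (15.7%) and 67 of 649 (10.3%) were members. With at most 1 UMI of Pi16, Dpt and Mfap5, 10 control and 2 mutant cells passed the Tcf21 gate. All but 1 of them in each library also passed the myofibroblast or pericyte gate. Cells with at least 2 Pi16 UMIs numbered 26 and 33 in all, and 14 and 15 of them were not members. Of these, 10 and 14 had at least 2 UMIs of the other-lineage genes and 13 and 10 had fewer than 5 collagen UMIs, at median depths of 10831 and 8256 UMIs.

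At the limit itself, members with a marker sum of 8 or 9 numbered 50 and 46, with a median of 3 and 5 Dpt UMIs and 4 and 2 Mfap5 UMIs. Cells just outside, with a sum of 6 or 7, numbered 55 and 63, with a median of 3 Dpt UMIs and 2 Mfap5 UMIs in both libraries. A Tcf21 UMI was seen in 26.0% and 52.2% of the cells just inside and in 14.5% and 33.3% of those just outside.

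Dpt, which encodes dermatopontin, a matrix protein that binds decorin and collagen fibrils, carried the rule. It was seen in 247 of 271 control members (91.1%) and 251 of 274 mutant members (91.6%) and supplied 36.2% and 50.5% of all marker UMIs. Its level in members was 1044 CPM (997 to 1093) and 1340 CPM (1285 to 1396). By set it was 1720 and 1746 CPM in Tcf21 members, 503 and 545 in Aspn members and 701 and 557 in Pi16 members. In myofibroblasts outside the rule (the Aspn sum with at most 1 UMI of Pi16, Dpt and Mfap5) it was at most 24.7 CPM, where the limit itself holds it down. Dpt was thus highest in the Tcf21 members of both libraries, and the ratio of mutant over control, 1.28 (1.21 to 1.37) over all members, was 1.02 (0.942 to 1.09) within that set.

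Mfap5, a protein of the microfibrils of elastic fibres, was seen in 77.5% and 66.8% of members. It stood at 384 and 290 CPM in Tcf21 members, 1048 and 1152 CPM in Aspn members and 2931 and 1510 CPM in Pi16 members. Of these sets the Tcf21 members therefore had the lowest Mfap5 and the highest Dpt in both libraries. Clec3b, which encodes the plasminogen-binding protein tetranectin, was at 538 and 352 CPM in Tcf21 members and 1569 and 712 CPM in Pi16 members. In Aspn members it was 26.8 CPM from 3 cells and 109 CPM from 3 cells, with 80.0% and 52.5% of the UMIs in 1 cell.

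Col14a1, a collagen that sits on the surface of collagen fibrils, was at 60.9 and 4.93 CPM in Tcf21 members, 296 and 196 CPM in Aspn members and 693 and 959 CPM in Pi16 members. Serpinf1, which encodes the secreted anti-angiogenic serpin PEDF, was at 41.6 and 9.86 CPM in Tcf21 members and 1075 and 436 CPM in Pi16 members. Of the Tcf21, Aspn and Pi16 sets, the Pi16 members had the highest level of both genes in each library, while control members in no set had 848 CPM of Col14a1. Pi16, a peptidase inhibitor of the cell surface, had 67 control and 93 mutant UMIs. Of the control UMIs, 38.8% lay in 1 cell.

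After each cell was thinned to 2000 UMIs, a Pi16 UMI was seen in 4.06% (2.04 to 7.15) and 4.74% (2.55 to 7.98) of members. In endothelial cells, which should lack it, the shares were 0.333% (0.0403 to 1.20) and 1.46% (0.591 to 2.99), at median depths of 4455 and 5312 UMIs against 6192 and 5738. The mutant intervals of members and endothelial cells overlap. Unthinned, the members' shares were 6.27% and 9.49%. Dpt after thinning was seen in 76.8% and 80.7% of members and in 0.998% and 0.628% of endothelial cells.

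**Figure D2:**
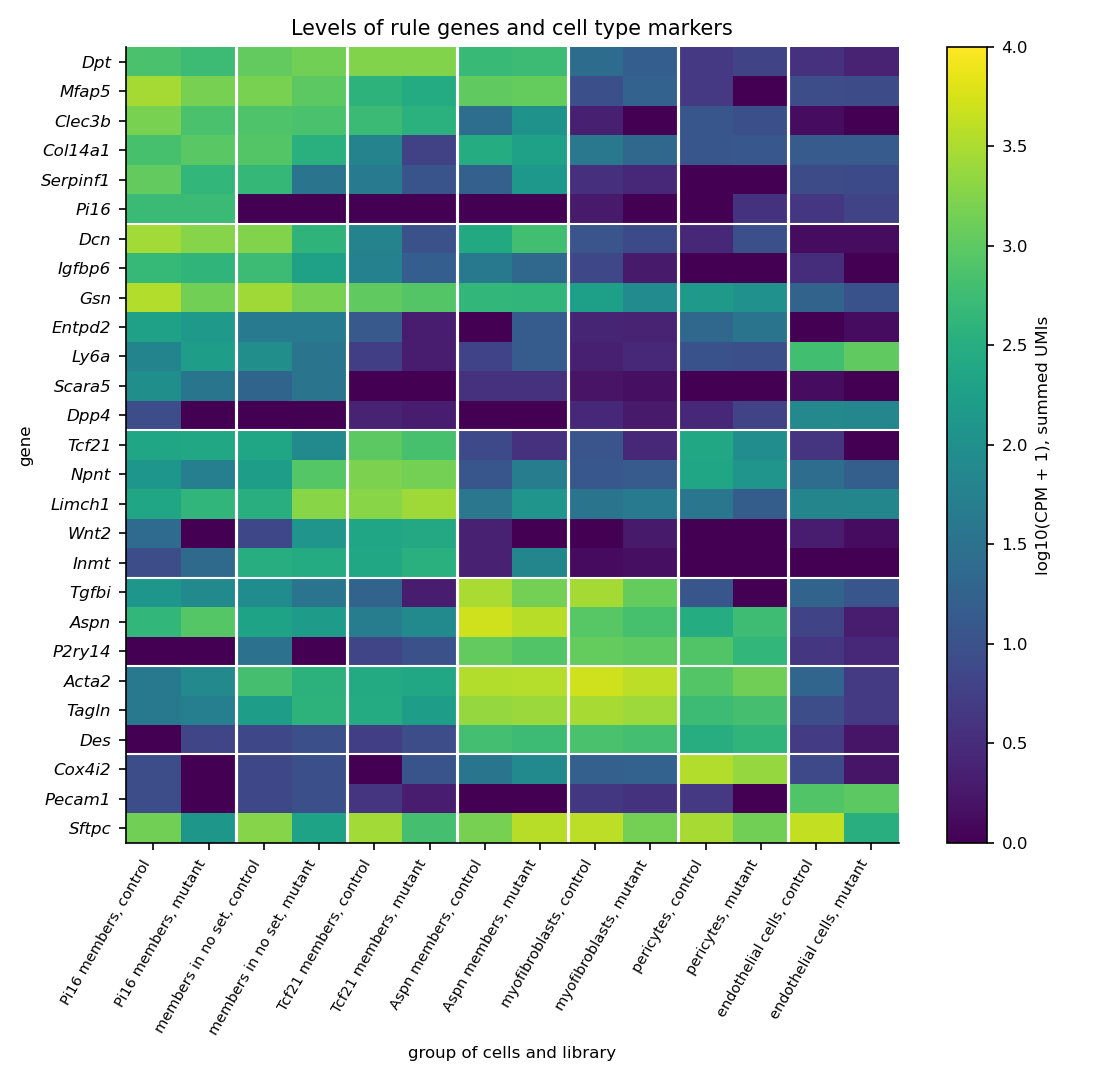
Colour gives log10 of CPM plus 1 for the rule's genes and for markers of fibroblast types, contractile cells, pericytes, endothelium and epithelium (vertical axis) in each group of cells and library (horizontal axis). Dpt is brightest in Tcf21 members, Pi16, Dcn and Serpinf1 in Pi16 members, and Tgfbi, Aspn and Acta2 in Aspn members and myofibroblasts.

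Tcf21 members differed from Aspn members in alveolar fibroblast and contractile genes in both libraries. A gene was counted when it had at least 50 UMIs over both sets in each library and differed at least 2-fold in the same direction in both. Of 3527 genes, 263 (7.46%) were higher and 198 (5.61%) were lower in Tcf21 members, with all genes at a median of 0 on this scale. Among alveolar fibroblast genes outside the gates, 10 of 11 were higher and 0 lower. Among contractile genes 0 of 12 were higher and 9 lower, and among myofibroblast genes outside the gates 0 of 5 were higher and 4 lower. Because the same cells were sorted by their counts to make the sets, these are descriptions of the sets. Genes with few UMIs in the lower set could also pass the filter on UMIs through the higher set alone. The part of this in the counts was not tested. Summed over the whole contractile list, levels were 2667 and 2829 CPM in Tcf21 members against 11992 and 14914 CPM in Aspn members. The whole alveolar fibroblast list, gate genes included, stood at 10960 and 14200 CPM against 1097 and 1597 CPM.

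The genes higher in Tcf21 members included cytoskeletal, signalling and metabolic genes of the alveolar fibroblast. Limch1, an actomyosin regulator, was at 1949 and 2677 CPM in Tcf21 members and 37.5 and 123 CPM in Aspn members. Gyg, the primer of glycogen synthesis, was at 1256 and 1345 CPM against 37.5 and 54.5 CPM. Macf1, a crosslinker of microtubules and actin, was at 2050 and 4271 CPM against 122 and 324 CPM. Each of these genes differed more than 10-fold between the sets in both libraries. Slit2, a guidance ligand, stood at 728 and 726 CPM against 16.1 and 57.2 CPM, and Figf, the lymphatic growth factor VEGF-D, at 669 and 641 CPM against at most 54.5 CPM.

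Retinoid and steroid metabolism genes were 2-fold higher in Tcf21 members for 5 of 7 genes and lower for 0. Genes with few UMIs in Aspn members could pass the filter on UMIs through Tcf21 members alone. The part of this in the count was not tested. Summed over the whole list, with genes left out of that count, levels were 3489 and 3608 CPM in Tcf21 members. In Aspn members they were 579 and 730 CPM. Adh1, an alcohol dehydrogenase that oxidises retinol, was at 593 and 423 CPM against 21.4 and 24.5 CPM in Aspn members. Hsd11b1, which regenerates active glucocorticoid, was at 125 and 339 CPM in Tcf21 members, with 1 and 0 UMIs in Aspn members. Wnt2, a canonical Wnt ligand and a gene of the gate, was at 223 and 261 CPM with the same 1 and 0 UMIs in Aspn members.

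Matrix genes reached both sides of the comparison. Among proteoglycans and matricellular genes, 7 of 21 were higher and 7 lower in Tcf21 members, among elastic fibre genes 2 of 15 higher and 4 lower, and among collagens 3 of 13 higher and 2 lower. Mfap4, a microfibril-associated glycoprotein, was at 14883 and 11865 CPM in Tcf21 members and 2570 and 1338 CPM in Aspn members. Fn1 (fibronectin) was at 2649 and 3767 CPM against 423 and 727 CPM, and Fbln5, which tethers elastin to cells, at 751 and 813 CPM against 96.3 and 104 CPM. The elastin gene Eln itself had the opposite order, with 3980 and 2570 CPM in Tcf21 members and 28301 and 15478 CPM in Aspn members. Loxl2, a collagen and elastin crosslinking oxidase, also had the opposite order, at 28.2 and 30.6 CPM against 476 and 640 CPM.

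Aspn members carried the contractile programme. Acta2 was at 3476 and 3645 CPM in Aspn members, 281 and 253 CPM in Tcf21 members and 5189 and 3967 CPM in myofibroblasts outside the rule. Tagln, an actin-binding protein of smooth muscle, was at 2339 and 2526 CPM, 293 and 166 CPM, and 3017 and 2608 CPM in the same order. Des, the muscle intermediate filament, was at 642 and 556 CPM in Aspn members with 3 and 8 UMIs in all Tcf21 members. For these genes Aspn members stood near the myofibroblasts and far from the Tcf21 members in both libraries. Signals differed as well: among Wnt and Bmp ligands and antagonists 1 of 13 was higher and 6 lower in Tcf21 members, among them Wnt5a at 104 and 125 CPM against 535 and 599 CPM. Guidance genes were mixed, with 4 of 8 higher and 2 lower, and Sema3c at 13.4 and 9.86 CPM against 479 and 485 CPM.

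**Figure D3:**
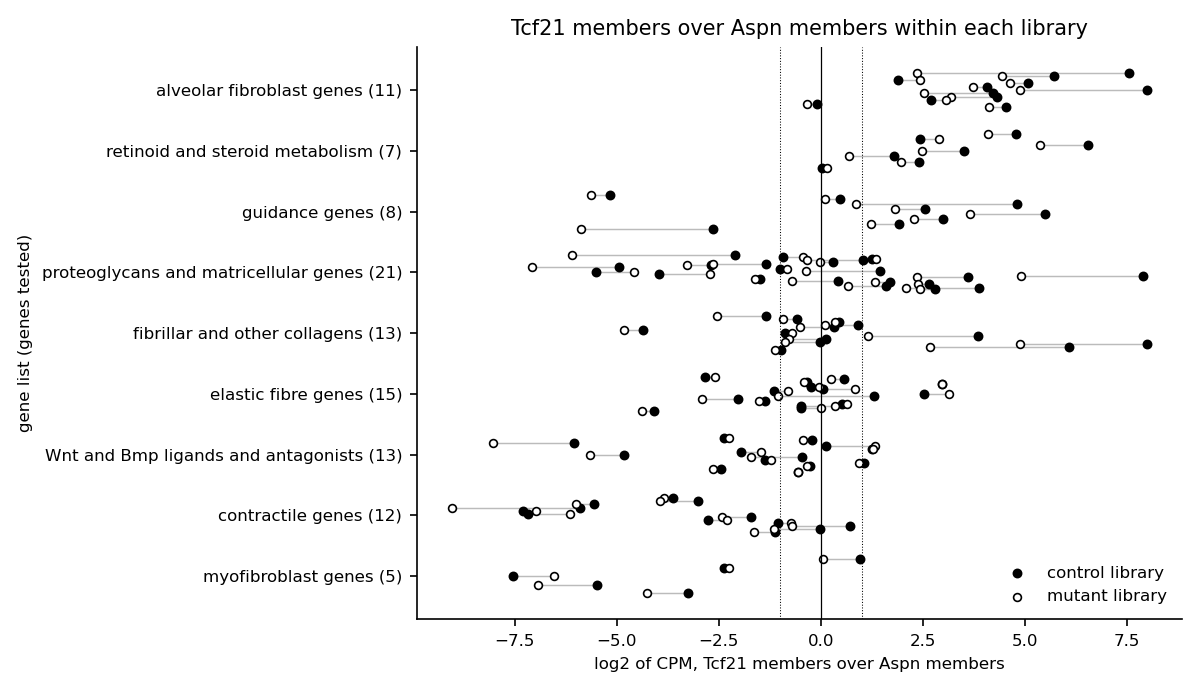
Each pair of points is 1 gene, with its log2 ratio of CPM in Tcf21 members over Aspn members on the horizontal axis for the control (filled) and mutant (open) library, grouped by gene list on the vertical axis with the number of genes tested. Alveolar fibroblast and retinoid genes lie to the right and contractile and myofibroblast genes to the left, while matrix lists reach both sides.

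All members together were also set against the myofibroblasts outside the rule. Of 7368 genes, 305 (4.14%) were at least 2-fold higher in members and 197 (2.67%) lower, in both libraries. Genes with few UMIs in the lower group could pass the filter on UMIs through the higher group alone. The part of this in the counts of this comparison was not tested. Complement genes were higher for 4 of 5 and lower for 0. Summed over the whole complement list, levels were 768.5 and 880.9 CPM in members against 170.0 and 161.3 CPM in myofibroblasts. C1s1, a protease of the first complement component, was at 64.1 and 61.8 CPM against 3.48 and 4.21 CPM, and Serping1, the inhibitor of that component, at 455 and 451 CPM against 95.6 and 87.9 CPM. C1s1 was at 231 and 212 CPM in Pi16 members and 37.2 and 37.5 CPM in Tcf21 members. Serping1 was at 1322 CPM in control Pi16 members and 455 CPM in control Tcf21 members, while the mutant levels, 568 CPM (462 to 692) and 499 CPM (456 to 544), have overlapping intervals. Proteoglycan and matricellular genes were higher for 13 of 28 and lower for 1, and contractile genes higher for 0 of 15 and lower for 11. Htra1, a secreted serine protease, was lower in members, at 234 and 88.9 CPM against 1647 and 883 CPM.

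Against the same myofibroblasts, Aspn members alone differed in few genes. Of 5930 genes, 72 (1.21%) were at least 2-fold higher and 97 (1.64%) lower in both libraries. The rule's Mfap5, Dpt and Col14a1 were among the higher genes by construction. Outside the rule, Dcn was at 264 and 610 CPM against 10.4 and 7.01 CPM, although 44.2% and 51.3% of its UMIs in Aspn members lay in 1 cell of each library. Cthrc1, a secreted protein of matrix-producing cells, was at 150 and 213 CPM against 6.65 and 16.8 CPM. Scx, the tendon transcription factor scleraxis, was at 189 and 403 CPM against 35.8 and 94.4 CPM, and Aspn, the proteoglycan asporin of the gate, at 5150 and 3760 CPM against 922 and 690 CPM.

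The lower genes in Aspn members were led by the cell cycle. Of 19 genes of the G2 and M phases, 18 were at least 2-fold lower than in myofibroblasts and 0 higher. Such genes could pass the filter on UMIs through myofibroblasts alone, and the part of this in the count was not tested. Summed over the whole list, levels were 273 and 321.5 CPM in Aspn members against 1691 and 1819 CPM in myofibroblasts. The medians per cell lay closer, at 210 and 195.8 CPM against 362.7 and 300.5 CPM. Cks2, a subunit of cyclin-dependent kinases, was at 6.69 and 8.17 CPM against 110 and 137 CPM. Top2a, a topoisomerase of dividing cells, was at 2.68 and 8.17 CPM against 56.3 and 119 CPM. Pdgfra, the receptor for PDGF-A, was lower too, at 37.5 and 68.1 CPM against 280 and 248 CPM. Median depths were 6571 and 6048 UMIs in Aspn members and 7325 and 5680 in myofibroblasts, and their part in these differences was not tested.

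Pi16 members had the collagen-rich profile known for the adventitia. Of 2176 genes, 90 (4.14%) were higher and 218 (10.0%) lower than in Tcf21 members in both libraries. Dcn, which encodes decorin, a proteoglycan that binds collagen fibrils, was at 2756 CPM (2473 to 3062) and 1894 CPM (1695 to 2110) in Pi16 members, against 60.9 and 8.87 CPM in Tcf21 members. In the mutant 48.2% of the Pi16 members' Dcn UMIs lay in 1 cell, and without the cell with the most UMIs the levels were 2077 and 1036 CPM. Of the rule's collagens, Col1a1 was at 17221 and 10184 CPM in Pi16 members and 2543 and 1810 CPM in Tcf21 members. Col15a1, a collagen of the basement membrane zone, was at 343 and 327 CPM against 16.4 and 0.986 CPM.

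Of the insulin-like growth factor system, 5 of 9 genes were higher in Pi16 than in Tcf21 members and 0 lower. Genes with few UMIs in the lower set could pass the filter on UMIs through the higher set alone. The part of this in the counts of this comparison was not tested. Summed over the whole list, levels were 11144 and 9386 CPM in Pi16 members against 4801 and 3977 CPM in Tcf21 members. Igfbp6, which prefers IGF-II, was at 478 and 419 CPM against 56.5 and 14.8 CPM, and Igfbp5 at 589 and 304 CPM against 16.4 and 19.7 CPM. For Igfbp5, 45.9% of the control UMIs in Pi16 members lay in 1 cell. Among adventitial fibroblast genes outside the rule 4 of 10 were higher and 0 lower, among collagens 4 of 13 higher and 1 lower, and among alveolar fibroblast genes 0 of 11 higher and 8 lower. The whole alveolar fibroblast list, gate genes included, held 269 and 462 UMIs in Pi16 members and 7374 and 14405 in Tcf21 members. Transcription factors split, with 6 of 25 higher and 8 lower. Twist2 was at 287 and 287 CPM against 31.2 and 1.97 CPM, and Osr1 at 430 and 247 CPM against 46.1 and 35.5 CPM. Tcf21 itself was seen in 12 of 17 control and 15 of 26 mutant Pi16 members, at 231 and 241 CPM, below the 981 and 685 CPM of the Tcf21 members whose gate required it.

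Set against Aspn members, Pi16 members had little of the contractile programme. Of 1596 genes, 80 (5.01%) were higher and 151 (9.46%) lower in both libraries. Of 11 contractile genes 11 were lower, while 9 of 12 adventitial fibroblast genes outside the rule were higher and 1 lower. The whole contractile list held 133 and 233 UMIs in Pi16 members and 8962 and 5474 UMIs in Aspn members. Contractile genes could thus reach 50 UMIs through Aspn members alone. Scaled to CPM, the list stood at 1059 and 1338 against 11992 and 14914. Genes higher in Pi16 members could likewise pass the filter through Pi16 members alone, and the part of this in the counts was not tested. Igfbp3, the main carrier of insulin-like growth factors in blood, was at 343 and 350 CPM in Pi16 members with 7 and 5 UMIs in all Aspn members. Endothelial genes summed to 398 CPM (50 UMIs) in control and 11.5 CPM (2 UMIs) in mutant Pi16 members, and their part in the levels given here was not tested. Cd34, a surface sialomucin of progenitors and adventitial cells, was at 597 and 356 CPM against 65.6 and 35.4 CPM. Aspn members were also lower in Cd34 than the myofibroblasts outside the rule, by a log2 ratio of -2.69 or beyond in both libraries. A higher Cd34 level than in Aspn members was thus not particular to Pi16 members. Acta2 was at 39.8 and 74.6 CPM in Pi16 members, from 5 and 13 UMIs, against 3476 and 3645 CPM in Aspn members.

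The adventitial fibroblast genes outside the rule summed to 11056 and 7675 CPM in Pi16 members and to 2952 and 2636 CPM in Tcf21 members. Some known markers among them had few UMIs. Ly6a (Sca-1) had 8 UMIs in 3 control cells and 29 UMIs in 5 mutant cells, with 75.9% of the latter in 1 cell. Scara5, a ferritin receptor, had 12 and 6 UMIs, and Dpp4 had 1 and 0 UMIs. The Pi16 members number only 17 and 26, so a single cell can hold a large part of a gene's UMIs there.

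The 26 control and 23 mutant members in no set were not alike between the libraries. Col1a1 was at 13789 and 4588 CPM and Dcn at 1740 and 401 CPM, the control cells lying near the Pi16 members for both genes. Npnt was at 175 and 878 CPM and Tcf21 at 225 and 76.8 CPM, so the mutant cells included Npnt-rich cells that missed the Tcf21 set for want of a Tcf21 UMI. Against Tcf21 members, 27 of 2269 genes (1.19%) were higher and 48 (2.12%) lower in both libraries.

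As a description of the gates, over 825 control and 690 mutant cells of the member, myofibroblast and pericyte gates, the genes whose log values went most closely with the summed markers were Mfap4 (Pearson r 0.806 and 0.834), Igfbp4 (0.687 and 0.737) and Fn1 (0.673 and 0.769). Next came Gpc3, a glypican (0.637 and 0.727), Pcolce2, an enhancer of procollagen processing (0.621 and 0.663), and Figf (0.607 and 0.691). The cells were gated on the same markers, high in members and low in the other classes, and share a library and its depth, so these values restate the contrast between the gates.

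Between mutant and control members, 364 of 7181 genes with at least 50 UMIs (5.07%) were at least 2-fold higher in the mutant and 178 (2.48%) were at least 2-fold lower. The median log2 ratio over all tested genes was 0.06. The same counts were 193 (4.26%) and 62 (1.37%) of 4529 genes within Tcf21 members and 191 (5.75%) and 140 (4.22%) of 3320 genes within Aspn members. Both directions together made 542 genes (7.55%). For 161 of these the log2 ratio in myofibroblasts, pericytes and endothelial cells went the same way and reached 0.5 of its value in members, 139 of them higher and 22 lower in the mutant. In all, 48 genes were called the same way in both the Tcf21 and the Aspn members, 31 of them higher in the mutant. No share of the genes tested in both sets stands beside this count, so whether it is large cannot be said here. Left without its top cell in each library, a gene kept its call in 359 of 364 cases for the higher and 171 of 178 for the lower genes.

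Several ratios over all members went with the larger Tcf21 share and smaller Aspn share of the mutant library. Aspn was lower in mutant members by a log2 ratio of -1.22, but by -0.45 within Aspn members and higher by 0.71 within Tcf21 members. Aspn is a gene of the gate that makes these sets, so the gate itself limits its ratios within them. The alveolar fibroblast and myofibroblast lists below also hold genes of the gates. Acta2 had log2 ratios of -0.79 over all members, -0.15 within Tcf21 members and 0.07 within Aspn members. Of 20 alveolar fibroblast genes, 9 were at least 2-fold higher over all mutant members with a median log2 ratio of 0.96, while within Tcf21 members 2 of 19 were, with a median of 0.45. Of 13 myofibroblast genes, 6 were at least 2-fold lower over all members with a median of -0.49, against 0 of 5 and a median of -0.04 within Tcf21 members and 2 of 13 and a median of 0.16 within Aspn members.

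The immediate early genes, which encode transcription factors and regulators induced quickly by growth factor and stress signals, were lower in the mutant in the Tcf21, Aspn and Pi16 members. Of 19 genes, 14 were at least 2-fold lower and 0 higher over all members, with a median log2 ratio of -1.28. Within Tcf21 members 9 of 17 were lower with a median of -1.63, within Aspn members 9 of 15 with a median of -1.34, and within Pi16 members 12 of 14 with a median of -1.74. Over all 798 genes tested in Pi16 members, 6.77% were at least 2-fold lower. Jun, a subunit of AP-1, stood at 642 and 183 CPM in Tcf21 members, 486 and 163 CPM in Aspn members and 697 and 229 CPM over all members. Junb stood at 740 and 231 CPM over all members, a ratio of 0.312 (0.278 to 0.350). Egr1, a zinc finger factor, was at 477 and 181 CPM, and Fos, the partner of Jun, at 1030 and 498 CPM. Fos differed less within Tcf21 members, at 673 and 510 CPM, than within Aspn members, at 1103 and 299.7 CPM.

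The list was lower to a varying extent in the other gated cells. In myofibroblasts 0 of 20 genes were 2-fold lower with a median of -0.19, against 2.71% of all genes tested there. In endothelial cells it was 6 of 19 with a median of -0.68, against 1.54%, and in pericytes 8 of 12 with a median of -1.47, against 2.80%. The differences between these groups rest on 1 library per genotype and were not tested. Hspa1a, an inducible heat shock chaperone, was lower in the mutant in each of them, at 374 and 47.7 CPM in members, 429 and 107 CPM in myofibroblasts, 390 and 14.2 CPM in pericytes and 422 and 83.7 CPM in endothelial cells. Of 14 heat shock genes, 3 were at least 2-fold lower in mutant members and 0 higher, with a median log2 ratio of 0.01.

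**Figure D4:**
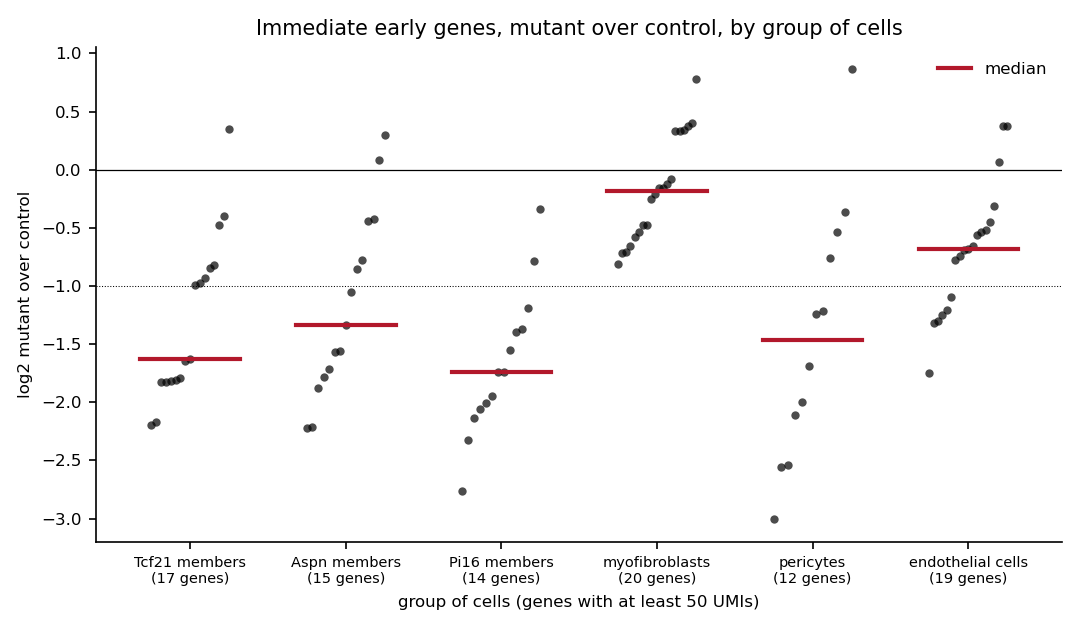
Each point is 1 immediate early gene with at least 50 UMIs, placed by its log2 ratio of mutant over control CPM (vertical axis) in 6 groups of cells (horizontal axis), and the red line is the group's median. The medians are -1.63, -1.34 and -1.74 in the Tcf21, Aspn and Pi16 members and -0.19 in myofibroblasts.

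Of the growth factors and receptors listed, 0 of 16 tested in Tcf21 members and 0 of 12 in Aspn members differed 2-fold in either direction. Single genes outside that list differed 2-fold in at least 1 set. Igf1, insulin-like growth factor 1, was at 577 and 1711 CPM in Aspn members, a ratio of 2.97 (2.62 to 3.36), and at 192 and 256 CPM in Tcf21 members. In myofibroblasts it was 375 and 1123 CPM. Bmp4, a bone morphogenetic protein, was lower in the mutant in both sets, at 164 and 74.9 CPM in Tcf21 members and 150 and 30.0 CPM in Aspn members, and at 131 and 53.8 CPM in myofibroblasts. Gucy1a3, a subunit of the nitric oxide receptor, was higher in both sets, at 68.4 and 206 CPM and at 32.1 and 98.1 CPM. Macf1 and Rock2, a kinase that drives actomyosin contraction, were also higher in both sets, with log2 ratios of 1.06 and 1.41 for Macf1 and 1.32 and 1.49 for Rock2, and of 1.05 and 1.77 in myofibroblasts.

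Of 10 genes for immune signals, 4 were at least 2-fold higher in mutant Tcf21 members and 0 lower, against 4.26% and 1.37% of all genes tested there. Their median log2 ratio was 0.37, against 0.14 over all genes. Genes with few control UMIs could pass the filter on UMIs through the mutant alone, and the part of this in the count was not tested. Summed over the whole list, with genes left out of that count, levels were 835 and 1096 CPM in Tcf21 members. Ccl11, the eosinophil chemokine eotaxin, had 1 UMI in the control and 65 UMIs in 28 cells of the mutant, a ratio of 43.1 (7.47 to 1729). Cxcl13, a B cell chemokine, had 3 UMIs in 3 cells and 86 UMIs in 20 cells, with 51.2% of the latter in 1 cell. Osmr, the oncostatin M receptor, was at 29.7 and 80.8 CPM, and C7, a late complement component, at 7.43 and 69.0 CPM. Hsd11b1 was at 125 CPM (99.6 to 155) and 339 CPM (304 to 377). Saa3, an acute phase protein, had 7 UMIs in 1 control cell and 266 UMIs in 12 mutant cells, all of them Tcf21 members, with 47.7% of the mutant UMIs in 1 cell.

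Of 19 collagen genes 0 were at least 2-fold higher and 0 lower over all members, with a median log2 ratio of -0.19. Within Aspn members 3 of 15 were higher. The collagens together summed to 12244 and 19995 CPM there, with cell medians of 11797 and 15785 CPM and 1 mutant cell at 104537 CPM. Col1a1, a gene of the rule, was at 2035 and 4365 CPM in Aspn members, a ratio of 2.14 (2.00 to 2.30), and at 1918 and 3925 CPM without the top cell of each library, while within Tcf21 members it was at 2543 and 1810 CPM and within Pi16 members at 17221 and 10184 CPM. Eln was lower in the mutant within Tcf21 members, by a log2 ratio of -0.63, and within Aspn members, by -0.87, but not within Pi16 members, where it was at 16966 and 18370 CPM. Vcan, the large proteoglycan versican, was higher in both large sets, at 177 and 339 CPM and at 145 and 343 CPM. Tgfbi, a matrix protein induced by TGF-beta and a gene of the gate, was lower in Aspn members, at 3153 and 1460 CPM, and in myofibroblasts, at 2940 and 1121 CPM. In the lower matrix-related genes of Aspn members, Gpc4, a glypican, stood at 229 and 65.4 CPM and Adam33, a membrane protease, at 363 and 106 CPM.

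**Figure D5:**
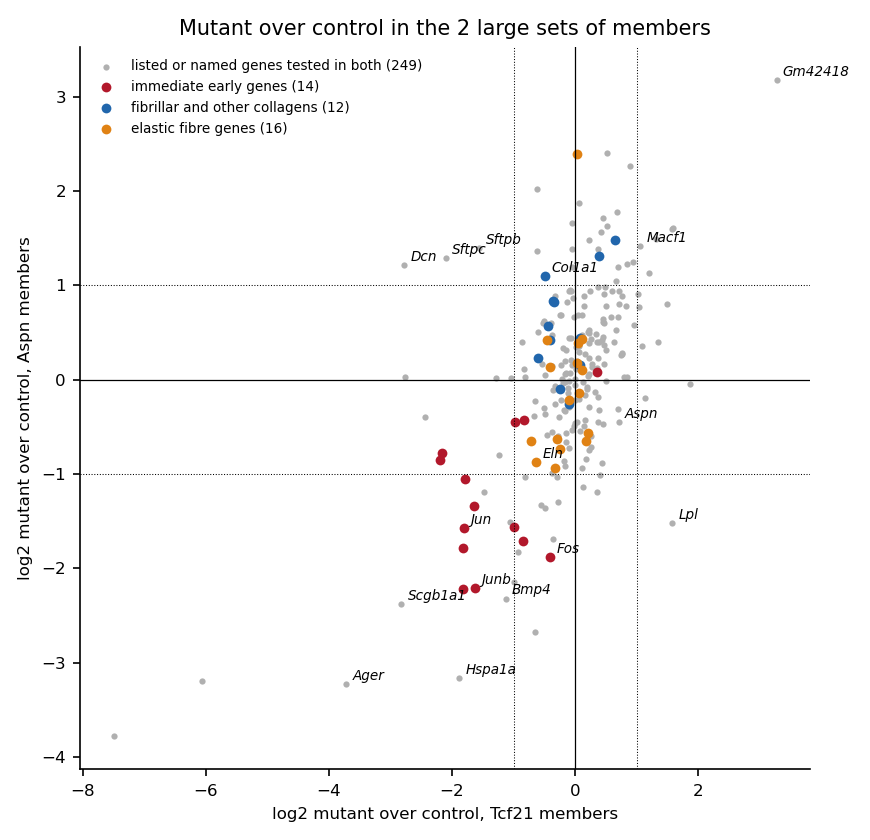
Each point is a listed or named gene tested in both sets, placed by its log2 ratio of mutant over control CPM in Tcf21 members (horizontal axis) and in Aspn members (vertical axis). Immediate early genes (red) lie mostly at the lower left, the collagen Col1a1 (blue) lies past the upper dotted line, and the dotted lines mark 2-fold differences.

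Transcripts of other cells were present in members. The 13 epithelial genes summed to 3012 CPM in control and 1601 CPM in mutant members, from 738 to 81617 CPM per control cell and from 0 to 110691 CPM per mutant cell, with 1 and 0 of the genes at 0. Scgb1a1, a secretoglobin of club cells, was at 378 and 63.6 CPM in members and at 414 and 60.8 CPM in endothelial cells. Ager, a receptor of alveolar type 1 cells, was at 256 and 27.1 CPM in members, with 46.4% of the control UMIs in 1 cell. The summed levels of 10 endothelial genes were 58.0 and 18.2 CPM, with 50 of the 103 control UMIs in Pi16 members, of 10 immune genes 306 and 132 CPM, of 11 mesothelial genes 180 and 246 CPM and of 5 erythroid genes 396 and 8.83 CPM. Hba-a1 had 193 control UMIs, 67.9% of them in 1 cell, and 0 mutant UMIs, so it was at least 61.5-fold lower against a floor of 3 UMIs over the mutant members. The part of these transcripts in the differences above was not tested.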

How the data were processed

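The deposited matrices hold raw UMI counts per gene and cell barcode, which the authors made with Cell Ranger on build mm10, per the submitters' processing notes, which also name Seurat and give no versions. Barcodes with at least 500 genes and under 10% mitochondrial UMIs were kept. For each group and library, counts were added up over its cells and scaled to CPM. A gene was tested with at least 50 UMIs over the groups compared and called at a 2-fold difference, in both libraries for comparisons within a library. With 1 library per genotype no p-value was computed. Doublets were scored with Scrublet (scanpy 1.11.5), which called 10 control and 90 mutant barcodes, 0 and 1 of them members, and they were kept. The control share called, 0.242%, is too low for the caller to have worked there. Scripts used Python 3.11.15, numpy 2.4.6, scipy 1.17.1, pandas 2.3.3 and matplotlib 3.10.9, and were tested on simulated data. The members, the 35 gene lists and the comparisons were chosen with earlier results of these data known. Genes named were those of the rule, of the lists (highest levels, largest and smallest ratios), the 10 largest and 10 smallest ratios of a comparison at 100 CPM or more, and some chosen after their values were seen, among them Rock2, Gucy1a3, Gpc4, Adam33, Saa3 and Scx. A planned comparison with alveolar fibroblasts outside the rule could not be made, since 1 cell in each library passed its gate and neither the myofibroblast nor the pericyte gate, and the Tcf21 and Aspn sets took its place. The 12 alternatives run and 4 chosen after seeing the data changed the gate, the depth, the scaling, the filter on UMIs, doublets, free RNA and cycling cells.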

Additional observations from a re-analysis of the deposited data

Results flagged for a closer look

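For 4 genes the ratio of mutant over control was at least 2-fold in opposite directions in the Tcf21 and Aspn members. The difference between the sets was not tested, since each rests on 1 library per genotype. Dcn had log2 ratios of -2.78 in Tcf21 members and 1.21 in Aspn members, and of -2.82 and 1.02 without the cell with most of its UMIs in each library. Lpl, the lipoprotein lipase that frees fatty acids from triglycerides, had log2 ratios of 1.58 in Tcf21 members and -1.52 in Aspn members. It was seen in 27 of 114 control and 81 of 166 mutant Tcf21 members, and in 58 of 107 control and 14 of 56 mutant Aspn members. Without the top cell the log2 ratios of Lpl were 1.66 and -1.56. The surfactant genes Sftpc and Sftpb, made by alveolar type 2 cells, had log2 ratios of -2.11 and -1.56 in Tcf21 members and 1.29 and 1.39 in Aspn members. In mutant Aspn members 1 cell held 95.8% of the Sftpc and 92.5% of the Sftpb UMIs. Without the top cell of each library the log2 ratios in Aspn members were -3.22 for Sftpc and -2.26 for Sftpb, in the same direction as in Tcf21 members.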

How the results depend on the processing

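No paired analysis was possible because each genotype has 1 library. Across the alternatives, 133 main values stayed within 1.5 times, their interval or their direction and 39 moved. A gate of 12 marker UMIs with 6 gave 177 control and 167 mutant members, with Aspn members at 27.7% and 12.6% and Pi16 members at 14.4% in the mutant. A gate of 6 with 3 gave Aspn members at 46.2% and 28.5% and Tcf21 members at 54.4% in the mutant. Thinning to 4000 UMIs before the gate gave 171 and 182 members and Aspn members at 28.1% and 14.3%. Aspn members were the smaller share in the mutant under each of these gates. Genes higher and lower in mutant members numbered 652 and 387 at a filter of 20 UMIs, 206 and 102 at 100 UMIs and 2128 and 1565 at 1 UMI. Leaving out members with over 3 UMIs of cell cycle genes, 150 of 271 and 172 of 274, gave 134 and 102. After thinning to 2000 UMIs only 7.38% and 10.2% of members pass that limit, so most of those left out are not shown to be cycling. Tcf21 members alone gave 193 and 62, Aspn members alone 191 higher, and subtracting free RNA 297 lower. Against myofibroblasts, 504 genes were higher and 336 lower in members at 20 UMIs, 128 lower at 100 UMIs, and 1063 higher and 508 lower at 1 UMI. Genes higher and lower in Tcf21 than in Aspn members numbered 453 and 374 at 20 UMIs, 154 and 104 at 100 UMIs, 723 and 1038 at 1 UMI and 123 and 96 without those members. Of these the lower genes numbered 103 under the stricter gate and 103 after thinning to 4000 UMIs. Fewer cells and higher filters leave fewer genes to test, and the gates also changed the shares of the sets. The part of each in the lower counts was not tested. The log2 ratio of Aspn between genotypes was reversed in Tcf21 members alone, at 0.71 (higher in the mutant), where the Aspn gate limits its level. The alternatives for the comparison with alveolar fibroblasts outside the rule, among them a gate with more Tcf21 UMIs, were not run, since that gate held 1 cell in each library. In Pi16 members, with 17 and 26 cells, 798 genes reached 50 UMIs.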

Other observations

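Transcription factors also divided the sets. Of 31 tested between Tcf21 and Aspn members, 7 were at least 2-fold higher in Tcf21 members in both libraries and 5 lower, against 7.46% and 5.61% of all genes tested. Meox2, a mesodermal homeobox factor, was at 447 CPM in control and 507 CPM in mutant Tcf21 members and at 9.37 and 21.8 CPM in Aspn members. Maf, a leucine zipper factor, was at 392 and 447 CPM against 2.68 and 13.6 CPM. Foxf1, a forkhead factor of lung mesenchyme, had the opposite order, at 17.8 and 17.7 CPM against 106 and 153 CPM.

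After thinning to 2000 UMIs, 7.38% of control and 10.2% of mutant members held more than 3 UMIs of S, G2 and M phase genes. Within Tcf21 members the shares were 4.39% and 10.8%, and within Aspn members 9.35% and 8.93%. They were 18.99% and 16.7% of myofibroblasts and 28.5% and 40.8% of endothelial cells. Unthinned, the members' shares were 55.4% and 62.8%.

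The share of UMIs taken as free RNA from the level of Sftpc was 2.27% in control and 13.6% in mutant members, but 1 mutant cell held 63.0% of the mutant members' Sftpc UMIs. It was 3.13% and 7.23% in Tcf21 members, 1.71% and 41.3% in Aspn members and 1.54% and 1.46% in Pi16 members.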
